A study of Arabidopsis thaliana with 4 samples.

Results

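Xyloglucan endotransglucosylase/hydrolase genes (XTH) and alpha-expansin genes (EXPA) encode proteins that loosen the walls of growing plant cells. The set described here holds 40 genes, 24 XTH and 16 EXPA, of the 32833 genes in the deposited RNA tables. All 40 were found by their identifiers. The nuclei came from root tips of Arabidopsis thaliana and were profiled with a multiome assay, which counts RNA molecules and open chromatin fragments in one and the same nucleus. Both groups were of the genotype Col-0, were 10 days old and were sampled as the terminal 5 mm of the root. The stress group (2 libraries) grew on 1/2MS, Murashige and Skoog medium at 1/2 strength, with 250 mM sorbitol, which lowers the water potential outside the cell, and the control group (2 libraries) grew on that medium with 0 mM sorbitol. The study describes the libraries of a group as biological replicates, and the number of plants behind each library is not given in the sources used here.

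In the primary wall, xyloglucan coats and ties cellulose microfibrils. XTH enzymes cut xyloglucan chains and rejoin them to other chains, or in some members hydrolyse them, whereas expansins loosen the wall at acidic pH without cutting it. Roots use these proteins where cells elongate and where hairs grow out of trichoblasts, the hair-forming cells of the epidermis. Proton pumps of the plasma membrane provide the acidic pH, and enzymes of the Golgi apparatus build the xyloglucan.

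Nuclei with more than 1000 and fewer than 25000 RNA counts were kept, 23532 of them. Stress libraries held 7687 and 6499 nuclei with 37717096 and 31654663 RNA counts, and control libraries held 3213 and 6133 nuclei with 17567594 and 29971515 RNA counts. The members together took 1466 and 1475 counts per 1000000 RNA counts (CPM) in stress libraries, against 1563 and 1691 CPM in control libraries. The control libraries differed more from each other than the stress libraries did. Over 17836 genes, the SD of log2 expression between the libraries of a group was 0.0935 for stress and 0.422 for control. Control replicate 1 had a median of 679 peak counts per nucleus, and the other libraries had 3592 to 4006. Any pair of libraries shared 26 to 81 barcodes, at most 1.43% of the smaller library.

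Nuclei were clustered on RNA without the 40 members, so that a member's level in a cluster had not shaped it. Of 18 clusters, 11 could be named from marker lists, which gave 9 classes called "-like", and 6 of these classes and 5 unnamed clusters had at least 20 nuclei in every library and were compared. Trichoblast-like nuclei (2066) carried 13 of 14 trichoblast markers, dividing-like nuclei (860) carried 5 of 5, and atrichoblast-like nuclei (1519; atrichoblasts are the non-hair cells of the epidermis) carried 4 of 12. Cortex-like nuclei (3350) came from 2 clusters with 5 and 6 of 12 markers, and the larger one had the immune gene AT5G41740 among its leading genes. Endodermis-like nuclei (2496) came from 2 clusters with 6 and 15 of 16 markers, the larger one with the immune regulator SARD1 among its leading genes, and stele-like nuclei (2130) carried 4 of 15 markers. Several groups took unequal shares of the libraries. Atrichoblast-like nuclei made up 4.85% and 4.40% of stress libraries, against 13.3% and 7.06% of control libraries. Cluster 1, which carried 2 of 12 markers of the quiescent centre and initials and stayed unnamed, made up 12.4% and 12.1% of stress libraries, against 30.6% and 3.196% of control libraries. Of the 802 nuclei of unnamed cluster 10, 801 came from control replicate 2. In sums over a whole library, a change in the number of cells of a type and a change in RNA per cell cannot be told apart.

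The members were spread over the cell types of the root tip in distinct patterns. Of the 32 members with at least 200 counts, 5 each were highest in atrichoblast-like and cortex-like nuclei, 4 in trichoblast-like, 2 in dividing-like and 1 in endodermis-like nuclei, while 15 were highest in the unnamed clusters 0, 1, 8 or 11. For 14 of the 32, every library lay higher in the top group than any library in the group that came next. These levels are descriptions across groups of nuclei of the same 4 libraries, without a test. The heat map of levels by group of nuclei shows the blocks of members that share a top group.

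**Figure D1:**
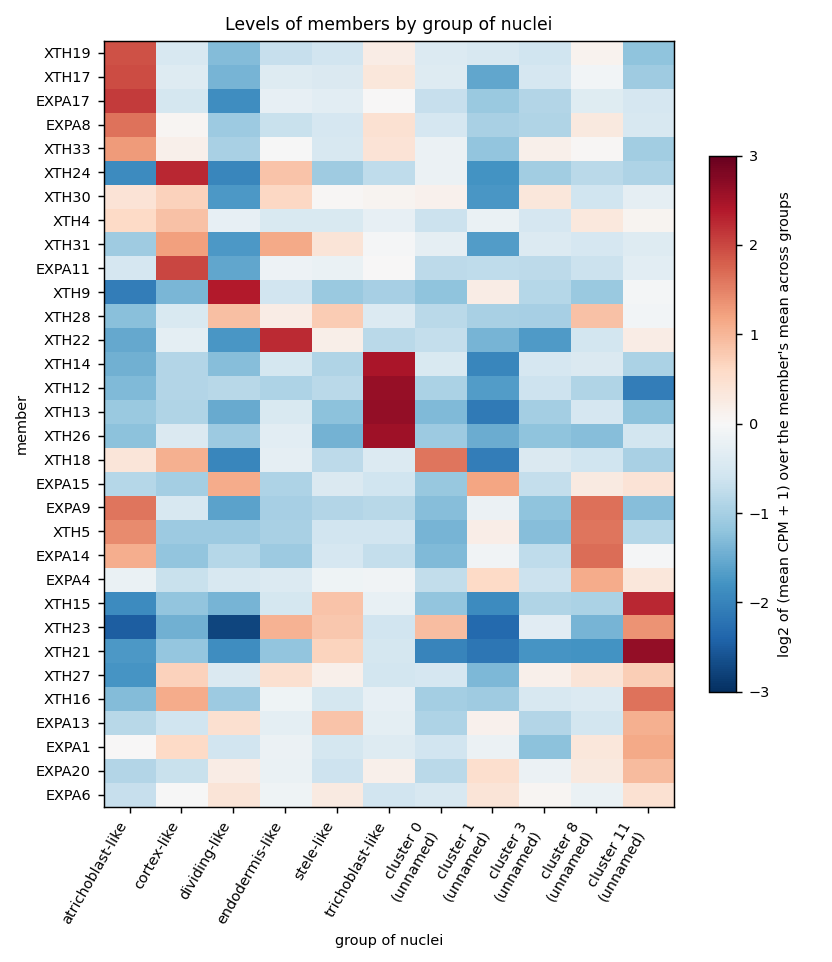
Levels of the 32 members with at least 200 counts in 6 named classes and 5 unnamed clusters, as log2 of the mean CPM over 4 libraries plus 1, relative to the mean of that member across the groups (red above, blue below). XTH12, XTH13, XTH14 and XTH26 form a red block in trichoblast-like nuclei, and XTH22 is red in endodermis-like nuclei.

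XTH12 (AT5G57530), XTH13 (AT5G57540), XTH14 (AT4G25820) and XTH26 (AT4G28850) were highest in trichoblast-like nuclei, and for all 4 the levels there did not overlap those of the group that came next. XTH14 and XTH26 are known xyloglucan endotransglucosylases of root hairs. XTH14 had 533 and 608 CPM in trichoblast-like nuclei of the stress libraries, against 835 and 458 CPM in those of the control libraries, and its mean over the libraries was 609 CPM there, against 80.6 CPM in cluster 8, which came next. The mean level in trichoblast-like nuclei was 11.5 times that in all other nuclei for XTH14, 15.2 times for XTH12, 17.3 times for XTH13 and 21.1 times for XTH26. Across the 11 groups, XTH13 and XTH14 had the most similar profiles of any pair of members (Pearson's r of log2 levels 0.96, a description over groups from the same libraries).

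The start regions of these root hair genes are shown because the members shared a top class, and 3 of the 4 hold the same short run of letters. Each window runs from 250 bases before to 50 bases after the gene start in the RefSeq genome TAIR10.1, whose gene starts matched those of the files. The windows are chr5:23301640-23301939 (minus strand) for XTH12, chr5:23304046-23304345 (minus strand) for XTH13, chr4:13130041-13130340 (plus strand) for XTH14 and chr4:14244040-14244339 (plus strand) for XTH26. Capitals mark TCCACGAA, which was searched on both strands and was chosen after the windows had been compared.
XTH12: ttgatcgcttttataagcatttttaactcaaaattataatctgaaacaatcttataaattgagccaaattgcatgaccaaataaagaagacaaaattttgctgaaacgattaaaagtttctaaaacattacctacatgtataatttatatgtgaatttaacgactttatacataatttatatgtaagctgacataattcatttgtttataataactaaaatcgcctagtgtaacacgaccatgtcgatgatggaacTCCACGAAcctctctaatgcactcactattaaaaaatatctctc
XTH13: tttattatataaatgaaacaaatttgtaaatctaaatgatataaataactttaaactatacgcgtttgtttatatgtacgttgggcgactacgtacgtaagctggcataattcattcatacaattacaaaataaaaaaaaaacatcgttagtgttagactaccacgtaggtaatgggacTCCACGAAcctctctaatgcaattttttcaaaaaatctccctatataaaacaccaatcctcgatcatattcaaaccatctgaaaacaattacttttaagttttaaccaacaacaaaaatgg
XTH14: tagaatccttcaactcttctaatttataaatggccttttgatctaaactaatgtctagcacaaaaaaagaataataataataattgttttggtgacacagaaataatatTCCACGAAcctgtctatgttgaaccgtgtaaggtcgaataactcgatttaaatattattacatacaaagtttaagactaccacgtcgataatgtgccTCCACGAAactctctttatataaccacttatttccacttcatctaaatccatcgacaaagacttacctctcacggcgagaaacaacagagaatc
XTH26: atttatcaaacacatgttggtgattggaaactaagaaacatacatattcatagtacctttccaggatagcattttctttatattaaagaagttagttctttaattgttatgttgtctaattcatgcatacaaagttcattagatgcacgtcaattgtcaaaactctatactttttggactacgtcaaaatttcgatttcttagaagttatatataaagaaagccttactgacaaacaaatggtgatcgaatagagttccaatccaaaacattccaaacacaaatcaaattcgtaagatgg

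The run TCCACGAA begins at position 7 of the XTH12 transcript, at position -71 of XTH13 and at positions -141 and -44 of XTH14, counted from the gene start. It is not in the XTH26 window, nor in those of the other 36 members. Of 32548 windows in the genome, 224 (0.688%) hold it. XTH12 and XTH13 are tandem neighbours, and their windows share an unbroken run of 23 bases, acTCCACGAAcctctctaatgca, that no other window holds. Reads of such close relatives may have been split between them by the authors' counting, so the separate levels of XTH12 and XTH13 are uncertain. A match of letters describes the window and is not a measured binding site.

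Other members were highest in the non-hair epidermis, the cortex, the endodermis or the dividing cells. XTH17 (AT1G65310) and XTH19 (AT4G30290), of the root-expressed clade XTH17 to XTH20, were highest in atrichoblast-like nuclei, at 303 and 439 CPM on average and 5.91 and 5.12 times the other nuclei. EXPA17 (AT4G01630), an expansin known for its part in lateral root emergence, was 7.13 times and EXPA8 5.35 times as high there as in the other nuclei. XTH22 (AT5G57560), the touch-induced gene TCH4, had 517 and 537 CPM in endodermis-like nuclei of stress libraries, against 1056 and 620 CPM in control libraries, and 9.10 times its level in other nuclei. XTH24 (AT4G30270, the meristem gene MERI5) and EXPA11 were highest in cortex-like nuclei, at 9.78 and 6.12 times the other nuclei. XTH9 (AT4G03210) was highest in dividing-like nuclei, with 86.3 and 91.8 CPM in stress libraries and 115 and 117 CPM in control libraries, 9.11 times its level in other nuclei. XTH15 (AT4G14130) and XTH21 were highest in cluster 11, which carried 2 stele markers, at 9.35 and 16.5 times the other nuclei and with r = 0.96 between their profiles. XTH15 overlaps the gene AT4G14120 on the opposite strand, so its counts are uncertain if the counting did not use strand.

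Some members were close to undetected in these root tips. XTH25 had 9 counts over all 4 libraries, EXPA2 had 1, EXPA5 had 2 and EXPA16 had 23. These 4 were not tested.

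The first comparison asked which members differed between stress and control root tips as a whole. In sums over whole libraries, 36 members could be tested, 23 XTH and 13 EXPA. Only 2 members passed the test, both expansins and both lower under stress, whereas 9.88% of all 20587 tested genes passed it, and 3.07% as lower (quasi-likelihood test of edgeR, p-values adjusted over all genes by Benjamini and Hochberg, adjusted p-value under 0.05). EXPA17 had 14.5 and 16.3 CPM in stress libraries, against 28.6 and 30.2 CPM in control libraries. The groups did not overlap, and EXPA17 fell by 1.13 on the log2 scale (SE 0.11, adjusted p = 0.0227, edgeR). EXPA9 (AT5G02260) had 56.9 and 55.2 CPM in stress libraries, against 100.8 and 80.3 CPM in control libraries. It fell by 0.89 (SE 0.16, adjusted p = 0.0456, edgeR). Both calls were lost without stress replicate 1 (adjusted p = 0.288 for EXPA17 and 0.405 for EXPA9, edgeR) and without stress replicate 2 (0.257 and 0.463). Both were also lost when nuclei had to lie within limits on RNA and on peak counts, where EXPA17 fell by 0.75 (adjusted p = 0.165, edgeR) and EXPA9 by 0.43 (0.0908), and neither of the 2 members that passed there (XTH14 and XTH24) was among those called above. EXPA9 was not called with the replicate block (0.0504) or with nuclei thinned (0.0768). Without cluster 10, an alternative chosen after seeing the data, 0 members and 1 of all genes passed the test, and without clusters 1 and 10, also chosen after seeing the data, EXPA17 passed (0.0224) and EXPA9 did not (0.0673).

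EXPA17 was highest in atrichoblast-like nuclei, whose share of nuclei was lower under stress, and EXPA9 averaged 225 CPM there and 231 CPM in cluster 8. Outside atrichoblast-like nuclei, EXPA17 stood at 9.48 and 11.3 CPM in stress libraries, against 10.7 and 19.0 CPM in control libraries, and these groups overlapped. EXPA9 stood at 45.4 and 43.4 CPM there under stress, against 59.1 and 57.4 CPM in control, with no overlap. The part of the share of nuclei in the fall in whole libraries was not tested.

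Of the other members, XTH18 and XTH23, with a mean of at least 20 CPM, had groups apart and a log2 change beyond 1 without passing the test. XTH18 (AT4G30280), of the root clade, had 192 and 195 CPM in stress libraries, against 236 and 481 CPM in control libraries, with a log2 change of -1.09 (SE 0.36, adjusted p = 0.117, edgeR). XTH23 (AT4G25810), a close relative of the touch gene XTH22, had 37.8 and 41.3 CPM in stress libraries, against 52.0 and 88.6 CPM in control libraries, with a log2 change of -1.03 (SE 0.27, adjusted p = 0.0829, edgeR). Control replicate 2 was the highest library for both.

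By group, the 4 root clade members had log2 changes of -1.09 to -0.51, and the 4 tested members of XTH21 to XTH25 had -1.03 to -0.08. The root hair members ran from -1.30 for XTH26 to 0.46 for XTH14, XTH4, XTH5 and XTH9 from -0.61 to 0.31, and XTH15 and XTH16 had 0.46 and -0.99. XTH27, XTH28 and XTH30 had -0.00 to 0.53, XTH31 and XTH32, whose group includes xyloglucan hydrolases, had 0.76 and 0.69, and XTH33, which carries a membrane anchor, had 0.80. None of these XTH members passed the test. The 13 tested EXPA members ranged from -1.62 (EXPA3) to 1.33 (EXPA10). Over all 36, the median log2 change was -0.21, against -0.00 over all tested genes. Both stress libraries lay above both control libraries for 13 members (50.4% of all tested genes did so) and below both for 9 members (18.7% of all tested genes). Fitted changes are relative to the bulk of genes, whose median log2 difference in CPM was 0.21 in favour of the stress libraries. Without adjustment, 8 members were higher and 7 lower at a p-value under 0.05 in the edgeR fit, 15 of 36, against 34.8% of all tested genes. The plot of whole-library levels shows every member with a mean of at least 1 CPM.

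**Figure D2:**
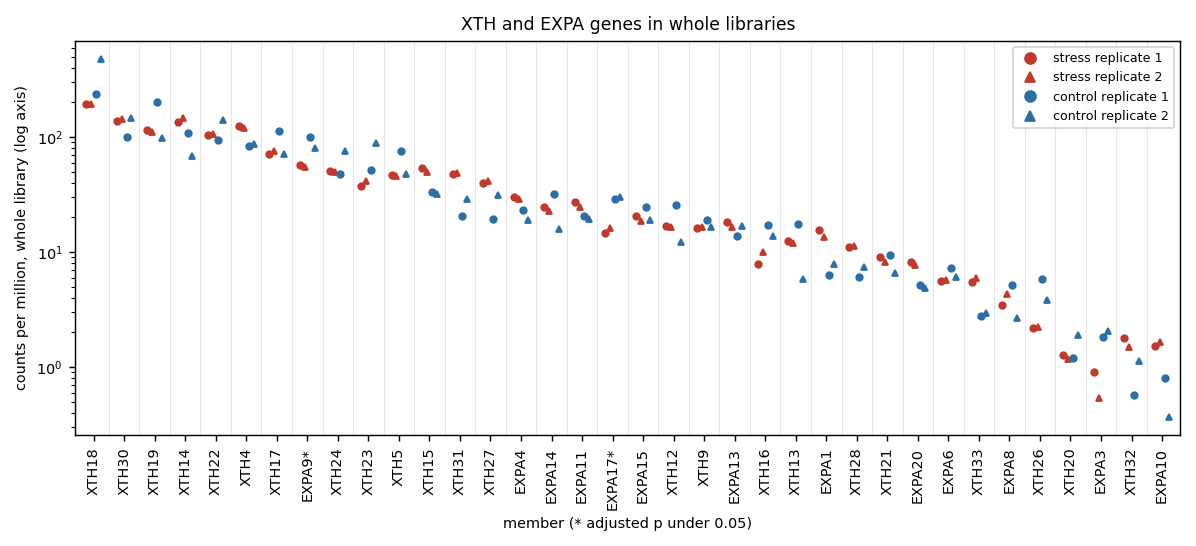
CPM of each member in the 4 whole libraries on a log axis, ordered by mean level (red, stress; blue, control; circles, replicate 1; triangles, replicate 2; a star marks the members that passed the test). Stress points lie close together, control points lie apart for many members, and EXPA17 has stress points at 14.5 and 16.3 CPM below control points at 28.6 and 30.2 CPM.

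The second comparison asked where in the root the members responded, with each class fitted alone. Of 184 tests of a member in a class, 22 passed, 7 higher and 15 lower under stress, from 14 of 35 tested members. Over all genes and the same classes, 7.93% of tests passed. The map of log2 changes by class shows that 13 of the 15 falls lay in cortex-like, endodermis-like and stele-like nuclei and 6 of the 7 rises in atrichoblast-like and dividing-like nuclei. Over all genes, falls numbered 467 in cortex-like, 920 in endodermis-like, 1149 in stele-like, 697 in atrichoblast-like, 341 in dividing-like and 250 in trichoblast-like nuclei. Rises over all genes numbered 763, 549, 627, 884, 485 and 288 in the same order. The classes are sums from the same 4 libraries.

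**Figure D3:**
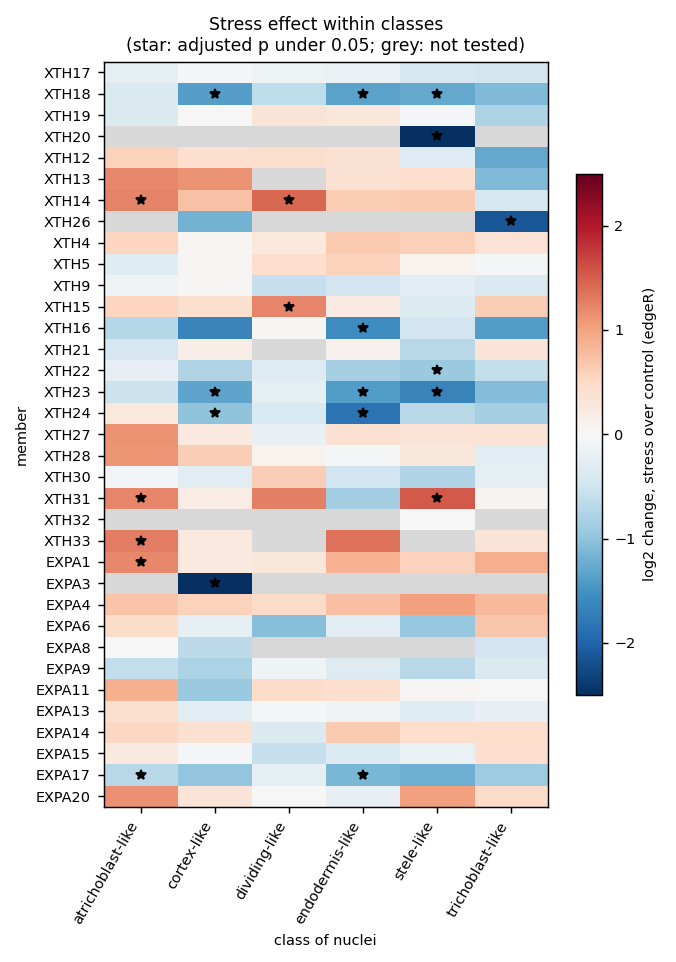
Log2 change of each member between stress and control (edgeR) in the 6 named classes (red, higher under stress; blue, lower; grey, not tested; a star marks an adjusted p-value under 0.05). Stars on blue stand for XTH18, XTH23 and XTH24 in 2 or 3 classes each, and stars on red for XTH31 in atrichoblast-like and stele-like nuclei.

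In endodermis-like nuclei, 5 of 30 tested members were lower and 0 were higher (9.51% of all genes passed, 5.95% as lower). XTH24 had 51.5 and 43.3 CPM in stress libraries, against 192 and 124 CPM in control libraries, and fell by 1.85 (SE 0.23, adjusted p = 0.00347, edgeR). XTH18 had 138 and 147 CPM under stress, against 272 and 362 CPM in control, and fell by 1.34 (SE 0.19, adjusted p = 0.00526, edgeR). XTH23 had 93.8 and 104 CPM under stress, against 307 and 175 CPM in control, and fell by 1.40 (SE 0.25, adjusted p = 0.0129, edgeR). None of the 3 overlapped between groups, and 18.7% of all tested genes lay below without overlap in whole libraries. The share within endodermis-like nuclei was not measured. All 3 passed without each library in turn. XTH24 also passed in every other alternative run, whereas XTH18 did not with genes scaled over all nuclei before clustering (adjusted p = 0.153, edgeR) and XTH23 did not with clusters at resolution 1.0 (0.108). XTH16 had 7.63 and 7.97 CPM under stress, against 21.9 and 20.3 CPM in control, from 24 and 21 counts under stress and 12 and 44 in control. It fell by 1.58 (SE 0.27, adjusted p = 0.0109, edgeR) and was not called without stress replicate 1 (adjusted p = 0.0695). EXPA17 had 11.4 and 10.3 CPM under stress, against 25.6 and 19.9 CPM in control, and fell by 1.14 (SE 0.26, adjusted p = 0.0347, edgeR), but passed only without control replicate 1 when libraries were left out in turn (adjusted p 0.0557 to 0.255 without the others). The 30 members had a median log2 change of -0.06, against 0.01 over all tested genes.

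In stele-like nuclei, 4 of 31 tested members were lower and 1 was higher (11.3% of all genes passed, 7.28% as lower and 3.97% as higher). XTH31 (AT3G44990) rose. It had 71.1 and 83.3 CPM in stress libraries, against 30.2 and 21.9 CPM in control libraries, a log2 change of 1.53 (SE 0.22, adjusted p = 0.00290, edgeR). XTH23 had 64.8 and 82.0 CPM under stress, against 218 and 209 CPM in control, and fell by 1.67 (SE 0.20, adjusted p = 0.00119, edgeR). Both passed without each library in turn and in every other alternative run. XTH22 had 108 and 132 CPM under stress, against 200 and 212 CPM in control, and fell by 0.92 (SE 0.19, adjusted p = 0.0152, edgeR). XTH18 had 96.2 and 111 CPM under stress, against 139 and 295 CPM in control, and fell by 1.29 (SE 0.32, adjusted p = 0.0298, edgeR). XTH22 was not called without stress replicate 1 (adjusted p = 0.458) or stress replicate 2 (0.186), and XTH18 passed only without control replicate 1 (0.0949 to 0.239 without the others), with a log2 change of -0.50 without control replicate 2. XTH18 was also not called at resolution 1.0 (0.0612) or with genes scaled over all nuclei (0.07998). XTH20 rested on 3 and 1 counts under stress and 6 and 10 in control. It fell by 3.001 (SE 0.77, adjusted p = 0.0349, edgeR), was not called without either stress library (0.177 and 0.328) and was not tested without a control library. The median log2 change of the members was -0.29, against 0.00 over all tested genes.

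In cortex-like nuclei, 4 of 33 tested members were lower and 0 were higher (7.24% of all genes passed, 2.75% as lower). XTH24 had 212 and 192 CPM in stress libraries, against 369 and 334 CPM in control libraries, and fell by 1.01 (SE 0.19, adjusted p = 0.0352, edgeR). XTH18 had 359 and 361 CPM under stress, against 611 and 1001 CPM in control, and fell by 1.38 (SE 0.28, adjusted p = 0.0412, edgeR). XTH23 had 18.6 and 18.8 CPM under stress, against 40.6 and 40.2 CPM in control, and fell by 1.33 (SE 0.18, adjusted p = 0.0191, edgeR). No stress library reached a control library for these 3, and 18.7% of all tested genes lay so in whole libraries. The share within cortex-like nuclei was not measured. EXPA3 (AT2G37640) had 4 and 2 counts under stress and 3 and 14 counts in control. It fell by 2.62 (SE 0.54, adjusted p = 0.0443, edgeR). XTH18 was not called at resolution 1.0 (adjusted p = 0.0504, edgeR) or with high doublet scores removed (0.0587), nor XTH23 with genes scaled over all nuclei (0.0878). None of the 4 was called without stress replicate 1 (adjusted p 0.123 to 0.462) or without stress replicate 2 (0.115 to 0.578), while the log2 changes of XTH18, XTH23 and XTH24 stayed between -1.72 and -0.94 whichever library was left out.

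The plot of 5 members within classes shows XTH18, XTH22, XTH23, XTH24 and XTH31 library by library. Fitted changes were negative in 6 of 6 classes for XTH17, XTH18, XTH22, XTH23, EXPA9 and EXPA17. They were negative in 5 of 6 for XTH24, as for XTH9, XTH16, XTH30 and EXPA13. Those of XTH4 (0.06 to 0.66), EXPA4 (0.47 to 1.02) and EXPA1 (0.25 to 1.20) were positive in 6 of 6. XTH4 and EXPA4 were not called in a named class. Positive in 5 of 6 were XTH14, XTH15, XTH27, XTH31, EXPA11, EXPA14 and EXPA20. The share of all genes with 1 sign in every class was not measured. XTH18 and its neighbours are tandem genes in part. XTH18, XTH19 and XTH24 lie side by side on chromosome 4, XTH23 lies beside XTH14 on that chromosome, and XTH22 lies in a row with XTH12, XTH13 and XTH25 on chromosome 5, so that counts may have been shared among neighbours of similar sequence.

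**Figure D4:**
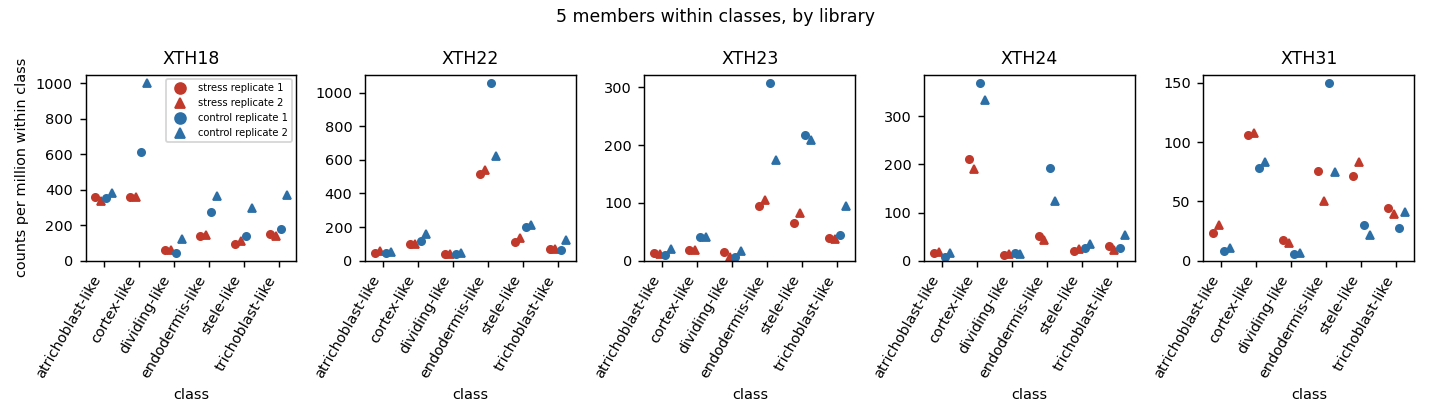
CPM of XTH18, XTH22, XTH23, XTH24 and XTH31 within the 6 named classes, 1 panel per gene and 1 point per library (red, stress; blue, control; circles, replicate 1; triangles, replicate 2). XTH23 in stele-like nuclei shows stress points at 64.8 and 82.0 CPM well below control points at 218 and 209 CPM, and XTH31 in the same nuclei shows stress points at 71.1 and 83.3 CPM above control points at 30.2 and 21.9 CPM.

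Genes of jasmonate signalling, wounding and touch had a negative median log2 change in each of the 6 named classes. The medians were -1.78 in stele-like, -1.43 in endodermis-like, -0.99 in cortex-like, -1.11 in trichoblast-like, -0.91 in atrichoblast-like and -0.63 in dividing-like nuclei. This list of 18 genes, which includes JAZ repressors, WRKY40 and the calmodulin-like touch gene TCH3, summed to 2511 and 2689 CPM in stele-like nuclei of stress libraries, against 5586 and 7620 CPM in those of control libraries. In endodermis-like nuclei it summed to 3100 and 3314 CPM under stress, against 6481 and 6488 CPM in control, and in cortex-like nuclei to 4926 and 5014 CPM, against 6744 and 10295 CPM. Of its tested genes, 12 of 15 were lower in stele-like, 11 of 16 in endodermis-like and 3 of 17 in cortex-like nuclei, and 0 were higher (edgeR, adjusted p-value under 0.05). Of all genes, 7.28%, 5.95% and 2.75% were lower there. In stele-like nuclei the calls of JAZ1, JAZ7, JAZ8, AOC3 and WRKY33 were each lost in at least 1 fit with a library left out. So were those of JAZ8 in endodermis-like and TCH3 in cortex-like nuclei. Without control replicate 2, JAZ7 and JAZ8 had log2 changes of -0.33 and -0.80 in stele-like nuclei, against -2.26 and -2.48 with all libraries. In atrichoblast-like, dividing-like and trichoblast-like nuclei, 1 each was lower, TCH3, whose calls in these 3 classes were lost without either stress library (adjusted p 0.185 to 0.522, edgeR). In whole libraries the list summed to 2478 and 2643 CPM under stress, against 2449 and 5043 CPM in control. The part of this response in the values of XTH18, XTH22, XTH23 and XTH24 was not tested. The list had been chosen with earlier results of these data known, so its counts only describe it.

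The start region of XTH18 (chr4:14827162-14827461, minus strand, TAIR10.1) is shown because XTH18 was lower in 3 classes. Capitals mark AACGCG, the reverse complement of CGCGTT, a known rapid stress response element, at position -76.
XTH18: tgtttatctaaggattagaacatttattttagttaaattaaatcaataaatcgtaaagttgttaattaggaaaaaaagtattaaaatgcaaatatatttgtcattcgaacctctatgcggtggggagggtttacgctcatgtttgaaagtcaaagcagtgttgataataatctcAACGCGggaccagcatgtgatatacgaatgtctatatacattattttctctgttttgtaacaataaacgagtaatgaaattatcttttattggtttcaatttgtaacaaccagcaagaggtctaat

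CGCGTT was searched on both strands. It is in 3.36% of all 32548 windows and in those of 4 of the 40 members, EXPA6, XTH13, XTH18 and XTH20. The windows of XTH22, XTH23 and XTH24 do not hold these letters.

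In atrichoblast-like nuclei, 4 of 31 tested members were higher and 1 was lower (10.6% of all genes passed, 5.91% as higher and 4.66% as lower). XTH33 (AT1G10550) had 16.6 and 19.96 CPM in stress libraries, against 5.41 and 6.87 CPM in control libraries, a log2 change of 1.28 (SE 0.28, adjusted p = 0.0371, edgeR). EXPA1 (AT1G69530) had 16.9 and 16.5 CPM under stress, against 4.84 and 7.13 CPM in control, a log2 change of 1.20 (SE 0.29, adjusted p = 0.0469, edgeR). XTH31 had 23.5 and 29.9 CPM under stress, against 8.26 and 10.4 CPM in control, a log2 change of 1.23 (SE 0.25, adjusted p = 0.0309, edgeR). EXPA17 had 74.8 and 79.8 CPM under stress, against 100.5 and 104.4 CPM in control, and fell by 0.69 (SE 0.15, adjusted p = 0.0384, edgeR). XTH14, the other gene that rose, is given with the trichoblast markers. The groups of all 5 were apart, as were those of many tested genes in whole libraries (50.4% above and 18.7% below). The share within atrichoblast-like nuclei was not measured. The 31 members had a median log2 change of 0.41, against 0.02 over all tested genes. None of the 5 was called without stress replicate 1 (adjusted p 0.240 to 0.440) or without stress replicate 2 (0.308 to 0.412). The calls of XTH33, EXPA1 and XTH31 were also lost with DESeq2 (adjusted p 0.101 to 0.228) and with high doublet scores removed (0.0754 to 0.0918), and those of EXPA1, XTH31, XTH14 and EXPA17 at resolution 1.0 (0.0603 to 0.518, edgeR).

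In dividing-like nuclei, 2 of 27 tested members were higher and 0 were lower (5.92% of all genes passed, 3.48% as higher), XTH14 and XTH15. XTH15 had 42.3 and 31.9 CPM in stress libraries, against 14.3 and 14.02 CPM in control libraries, a log2 change of 1.21 (SE 0.26, adjusted p = 0.0369, edgeR). In trichoblast-like nuclei, 1 of 32 tested members was lower and 0 were higher (3.28% of all genes passed, 1.53% as lower). This was XTH26, with 9.61 and 10.6 CPM under stress, against 47.9 and 30.5 CPM in control, and it fell by 2.15 (SE 0.30, adjusted p = 0.0313, edgeR). The other root hair members had 72.1 and 69.4 CPM under stress against 213 and 82.2 CPM in control (XTH12, log2 change -1.29, adjusted p = 0.157, edgeR) and 56.0 and 49.6 CPM against 152 and 43.9 CPM (XTH13, -1.11, adjusted p = 0.281, edgeR). Neither XTH15 nor XTH26 was called without stress replicate 1 (adjusted p = 0.395 and 0.478) or stress replicate 2 (0.154 and 0.415), and XTH15 was not called with DESeq2 (adjusted p = 0.218).

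The level of a member in other nuclei is given beside these values, since free RNA of a library can be counted in nuclei that did not make it. Free RNA was not measured here. Of the 22 tests that passed, 8 were in a class where the member lay above its level in the other nuclei of all 4 libraries. They were XTH33 and EXPA17 in atrichoblast-like, XTH18 and XTH24 in cortex-like, XTH23 in endodermis-like, XTH22 and XTH23 in stele-like and XTH26 in trichoblast-like nuclei. In 7 tests the member lay below its level in the other nuclei of all 4 libraries. They were XTH14 and XTH31 in atrichoblast-like, XTH14 and XTH15 in dividing-like, XTH23 in cortex-like, EXPA17 in endodermis-like and XTH18 in stele-like nuclei. XTH31, for example, had 49.8 and 49.9 CPM outside atrichoblast-like nuclei under stress and 23.4 and 31.7 CPM in control. The part of free RNA in the changes of these 7 was not tested. Marker genes were measured beside XTH14.

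In atrichoblast-like nuclei XTH14 had 54.1 and 64.2 CPM in stress libraries, against 20.5 and 20.4 CPM in control libraries (log2 change 1.25, SE 0.19, adjusted p = 0.0147, edgeR), and in dividing-like nuclei 71.3 and 64.3 CPM, against 19.1 and 24.5 CPM (1.44, SE 0.20, adjusted p = 0.00982, edgeR). Neither was called without stress replicate 1 (adjusted p = 0.240 and 0.115) or stress replicate 2 (0.308 and 0.0729). The marker sum moved with it. Outside trichoblast-like nuclei the markers summed to 703 and 727 CPM under stress, against 324 and 364 CPM in control, and XTH14 had 76.2 and 73.6 CPM, against 29.9 and 32.0 CPM. XTH14 had 8.72 to 12.4 counts per 100 marker counts in every library of cortex-like, dividing-like, endodermis-like, stele-like and trichoblast-like nuclei alike. In atrichoblast-like nuclei it had 7.78 and 8.55 per 100 under stress, against 4.77 and 4.25 in control. XTH14 RNA made in these nuclei and XTH14 RNA from trichoblasts cannot be told apart here. EXPA18, a root hair expansin outside the 40 members, was higher in atrichoblast-like, cortex-like and endodermis-like nuclei (edgeR, adjusted p = 0.0194, 0.0199 and 0.0190). These calls were lost without stress replicate 1. Those in atrichoblast-like and endodermis-like nuclei were also lost without stress replicate 2. The call in endodermis-like nuclei was lost without control replicate 2 as well.

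**Figure D5:**
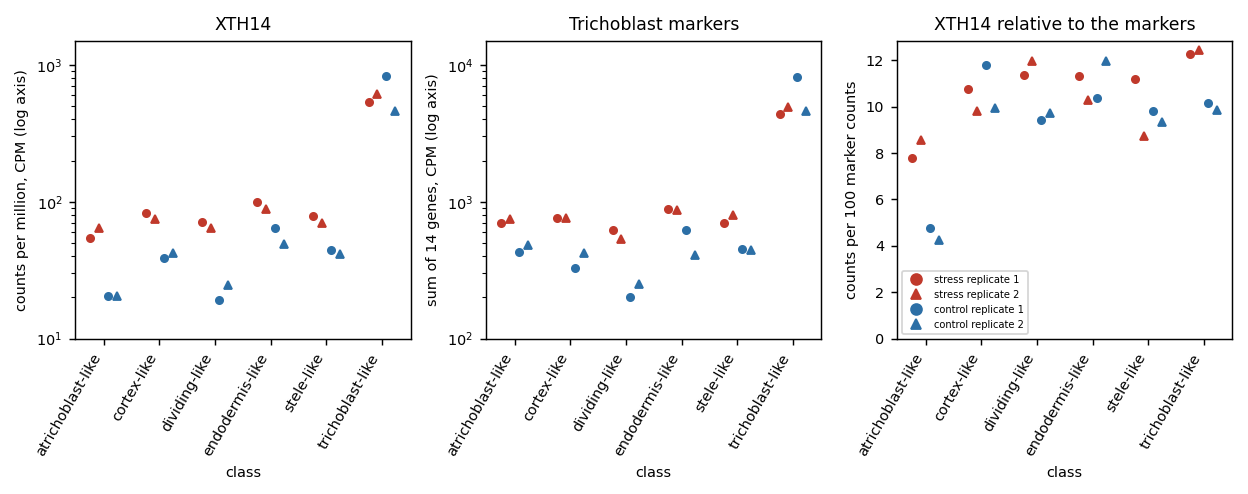
XTH14 in CPM (left, log axis), the sum of 14 trichoblast markers in CPM (middle, log axis) and XTH14 counts per 100 marker counts (right) in the 6 named classes, 1 point per library (red, stress; blue, control; circles, replicate 1; triangles, replicate 2). Outside trichoblast-like nuclei stress points lie above control points in the left and middle panels, and the ratio lies between 8.72 and 12.4 in all classes but atrichoblast-like.

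Among the unnamed clusters, cluster 0 and cluster 3 held members that passed the test. Cluster 0, the group with the highest XTH18 level, was led by the iron uptake gene FRO2. There XTH18 had 473 and 502 CPM in stress libraries, against 918 and 1537 CPM in control libraries, and fell by 1.55 (SE 0.27, adjusted p = 0.0269, edgeR). XTH23 fell by 1.82 and XTH24 by 0.95, while XTH31 and EXPA4 rose by 1.06 and 1.44 (5 of 29 tested members, against 8.16% of all genes, 3.23% as higher and 4.93% as lower). In cluster 3, XTH18 fell by 1.52 and XTH23 by 1.55, and XTH31 rose by 1.07. EXPA1 was the fourth of 29 tested members to pass (8.66% of all genes, 3.77% as higher and 4.89% as lower). It had 30 and 29 counts under stress and 0 in both control libraries, where 3 counts would be 11.1 and 2.92 CPM, so no fold is given for it, and its stress level of 7.97 and 8.91 CPM could not be told from that of control replicate 1 at this depth. In cluster 0, none of the 5 was called without stress replicate 1 (adjusted p 0.184 to 0.413, edgeR) or stress replicate 2 (0.113 to 0.303). In cluster 3, the calls of XTH18, XTH23 and XTH31 were lost without control replicate 2 (0.328 to 0.803) and without stress replicate 2 (0.0674 to 0.338), and only that of XTH18 was kept without stress replicate 1 (0.0479). Without control replicate 2 the log2 changes of XTH18 and XTH23 there were -0.38 and -0.29. In clusters 1, 8 and 11, 0 members passed (0.182%, 4.13% and 0% of all genes passed in edgeR). At an unadjusted p-value under 0.05 stood 11 of 30, 4 of 22 and 6 of 25 members, against 13.5%, 19.7% and 13.1% of all tested genes.

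Whether a member responded differently in a class than in the rest of the root was tested as an interaction, with the class and all other nuclei of each library as 2 sums. Of 216 such tests, 16 passed, from 11 members, against 3.76% of tests over all genes. In trichoblast-like nuclei, XTH13 and XTH14 passed with negative differences (2 of 36 tested members, against 0.77% of all genes in either direction and 0.745% with a negative one). XTH14 had 533 and 608 CPM under stress, against 835 and 458 CPM in control, in trichoblast-like nuclei, and the difference from its change in other nuclei was -1.36 on the log2 scale (SE 0.24, adjusted p = 0.0216, edgeR). For XTH13, with 6.07 and 6.09 CPM in other nuclei under stress, against 2.90 and 2.30 CPM in control, it was -1.88 (SE 0.31, adjusted p = 0.0163, edgeR). These 2 differences passed without each library in turn and in every other alternative run. The trichoblast marker sum moved the same way, at 4345 and 4893 CPM in trichoblast-like nuclei under stress, against 8211 and 4640 CPM in control, and higher under stress in the other nuclei, and its part in the differences was not tested.

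In endodermis-like nuclei the differences of XTH31 (-1.72, adjusted p = 0.00567, edgeR) and XTH24 (-1.38, adjusted p = 0.0123, edgeR) passed (2 of 36, against 1.3% of all genes and 1.22% with a negative difference). XTH31 had 76.0 and 50.5 CPM in endodermis-like nuclei under stress, against 150 and 74.8 CPM in control, and 45.2 and 48.3 CPM in other nuclei under stress, against 16.2 and 25.4 CPM in control. With clusters cut at a finer resolution its difference was 0.0646, and in that grouping the endodermis class held 364 nuclei and the cluster with SARD1 among its leading genes stayed unnamed. In stele-like nuclei XTH31 differed by 1.03, XTH30 by -0.70 and XTH15 by -0.81 (3 of 36, against 5.58% of all genes, 1.03% with a positive and 4.55% with a negative difference). Dividing-like nuclei held 9 positive differences of 36 tested, from 0.61 for XTH18 to 2.47 for XTH13 (7.18% of all genes passed, 6.74% in that direction). The median difference there was 0.36 over the members and 0.20 over all tested genes, and that over all genes was 0.00 without control replicate 1. XTH13 rested there on 17 and 8 counts under stress and 0 and 3 in control. In atrichoblast-like and cortex-like nuclei, 0 members passed (7.61% and 0.199% of all genes). When libraries were left out in turn, the differences in dividing-like nuclei were lost without either stress library and without control replicate 1 (adjusted p 0.0548 to 0.839, edgeR), and that of XTH15 also without control replicate 2 (0.101). The difference of XTH31 in endodermis-like nuclei was lost without stress replicate 2 (0.083) and that of XTH24 without either stress library (0.172 and 0.387). In stele-like nuclei, all 3 were lost without either stress library (0.247 to 1), and those of XTH30 and XTH31 also without control replicate 2 (0.465 and 0.606). With genes scaled over all nuclei before clustering, 7 of the 9 differences in dividing-like nuclei (adjusted p 0.0503 to 0.181, edgeR), both in endodermis-like nuclei (0.703 and 0.507) and that of XTH30 in stele-like nuclei (0.354) were lost, as were 6 of the 9 at resolution 1.0 (0.101 to 0.144).

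Accessible chromatin at the gene starts was read as a second measurement. Peaks merged over the libraries gave 27679 regions, of which 27 overlapped the start of 25 members (from 500 bases before to 100 after it), and 15 members had none. For 11 members the region had been called in all 4 libraries and was tested. None of the 11 passed, and 0.213% of all 18340 tested regions did so (edgeR quasi-likelihood test, adjusted p-value under 0.05), with 4 of 11 members at an unadjusted p-value under 0.05, against 18.4% of all tested regions. The largest change was at XTH23, region chr4:13127665-13128699 of TAIR10, with 50.7 and 45.0 CPM of peak counts in stress libraries, against 51.0 and 67.0 CPM in control libraries. Its log2 change was -0.36 (SE 0.11, adjusted p = 0.1603, edgeR). At EXPA8 the change was 0.22 (SE 0.07, adjusted p = 0.193, edgeR). At EXPA9, whose RNA was lower in whole libraries, the region had 65.3 and 64.4 CPM under stress, against 62.5 and 64.6 CPM in control (log2 change -0.01, SE 0.05). The 11 regions had a median log2 change of 0.03, against -0.00 over all regions. Peak counts were summed over all nuclei, so a change within 1 class was not measured.

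Genes that make xyloglucan or act beside the members were read in the same fits. In whole libraries 9.88% of all tested genes passed, 3.07% as lower. Of 11 genes of xyloglucan synthesis, 1 was lower, the xylosyltransferase gene XXT5, with 79.7 and 76.0 CPM in stress libraries, against 109 and 106 CPM in control libraries (log2 change -0.67, SE 0.11, adjusted p = 0.0401, edgeR). The call was lost without stress replicate 1 (adjusted p = 0.467, edgeR) and stress replicate 2 (0.540). The median of the 11 was -0.31. XXT5 was also lower in atrichoblast-like nuclei, and XT1, another xylosyltransferase gene, was lower in cortex-like and endodermis-like nuclei, and these calls were likewise lost without either stress library (0.251 to 0.497). None of 3 xyloglucan-trimming genes passed the test. The plasma membrane proton pump genes HA1 and HA2 had log2 changes of 0.51 and 0.70 in whole libraries without passing. HA2 had 388 and 394 CPM in dividing-like nuclei under stress, against 148 and 164 CPM in control (log2 change 1.14, SE 0.11, adjusted p = 0.00423, edgeR), and was also higher in endodermis-like nuclei (0.98, adjusted p = 0.0166, edgeR). Of the beta-expansin genes, EXPB3 was higher in endodermis-like nuclei (2.09, adjusted p = 0.0180, edgeR) and stele-like nuclei (1.67, adjusted p = 0.0124, edgeR). Of all tested genes, 4.66% were lower in atrichoblast-like, 2.75% in cortex-like and 5.95% in endodermis-like nuclei. Higher were 3.48% in dividing-like and 3.97% in stele-like nuclei, and 549 of 15453 in endodermis-like nuclei. HA2 was not called without stress replicate 2 in dividing-like nuclei (0.0568) and without stress replicate 1 in endodermis-like nuclei (0.0809), and EXPB3 passed only without control replicate 1 in both classes (0.0625 to 0.188 without the others). None of the 3 tested XTH genes, 3 tested EXPA genes and 2 tested EXPB genes outside the 40 passed in whole libraries.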

How the data were processed

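Root tip nuclei of 4 libraries (2 stress, 2 control) had been sequenced, aligned to TAIR10 and counted by the authors with Cell Ranger ARC 2.0.2, and the deposited tables hold raw counts of RNA molecules per gene and of fragments per peak for each nucleus, not normalized. Per the submitters' notes, Seurat 4.3.0 was also used. Whether the counting used strand is not given in the sources used here. The 40 members, the other gene lists and the markers were chosen with earlier results of these data known.

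Nuclei with RNA counts over 1000 and under 25000 were kept. Doublets were scored with Scrublet, which marked 0 nuclei, so none was removed in the reported values. For clustering (scanpy 1.11.5, leidenalg 0.10.2, Python 3.11.15), member and organelle genes were left out, 2000 variable genes were scaled within each library, and 30 components, 20 neighbours and a resolution of 0.6 were used. A cluster was named where at least 3 markers and 20% of a list were detected in over 10% of its nuclei and over 2-fold above other nuclei, with a lead of 1.5 over the next list. Raw counts were summed per library and class and tested with edgeR 4.0.16 (R 4.3.3) by the quasi-likelihood test, with TMM normalization, its filter on low counts and Benjamini-Hochberg adjustment over all genes of a fit. Only the samples of the fit shared its estimate of the spread, and SE is the size of the log2 change over the square root of F. CPM are counts per 1000000 RNA counts of the kept nuclei summed. Values within a class that rest on few counts carry counting error as well, and p-values measure the spread between these 4 libraries. For accessibility, the peaks of 4 libraries were merged where they shared at least 1 bp, and fragment counts were summed over all kept nuclei.

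Members with values in each library are those called, and otherwise those with a mean of at least 20 CPM, groups apart and a log2 change of at least 1. In data simulated for whole libraries (20571 genes), 48 of 100 genes changed by a log2 fold of 1 and 100 of 100 changed by 2 were recovered, with 4 false calls. For cortex-like nuclei (16947 genes) these were 25 and 100 of 100, with 4 false calls. In both simulations the libraries of a gene had the same mean, apart from the changes put in, and the same spread. The real control libraries differed more than the stress libraries (SD 0.422 against 0.0935), so recovery and false calls in these data may be different. Alternatives were DESeq2 1.42.0, other size factors, filters, limits on nuclei, thinning to 1000 counts per nucleus, clusterings, removal of high doublet scores, the replicate block, and each library left out. Nothing deposited per sample was left unused.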

Additional observations from a re-analysis of the deposited data

Results flagged for a closer look

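The change under stress differed between a class and the other nuclei of the same libraries for 16 combinations of member and class (edgeR interaction test, adjusted p-value under 0.05), given here as the log2 change in the class minus that in the other nuclei. In dividing-like nuclei the differences were 0.77 for XTH30, 2.47 for XTH13, 1.13 for XTH5, 0.88 for EXPA9, 2.12 for XTH21, 0.61 for XTH18, 1.04 for XTH14, 0.97 for XTH19 and 0.87 for XTH15. In endodermis-like nuclei they were -1.72 for XTH31 and -1.38 for XTH24. In stele-like nuclei they were -0.70 for XTH30, 1.03 for XTH31 and -0.81 for XTH15. In trichoblast-like nuclei they were -1.88 for XTH13 and -1.36 for XTH14.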

How the results depend on the processing

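Of the 22 calls within classes, 5 held without each library in turn and 3 of these (XTH24 in endodermis-like nuclei, XTH23 and XTH31 in stele-like nuclei) in every alternative run. Of the 16 differences between a class and other nuclei, 2 held throughout, XTH13 and XTH14 in trichoblast-like nuclei. In whole libraries, where 2 members were called, 9 were called with DESeq2. With no filter on low counts 7 were called (1708 of all 26331 genes higher and 857 lower), and with every deposited barcode 6 (1955 and 1100 of 20686). With nuclei thinned it was 1 (381 and 132 of 18219), and with the replicate block 1 (997 and 376 of 20587). Without cluster 10 (chosen after seeing the data) it was 0 (1 and 0 of 20460). Over all genes as among members, calls were lost without either stress library and were more numerous without either control library. With RNA and peak limits 2 members were called (712 and 257 of 20341 genes) and with clusters 1 and 10 left out 2 (977 and 446 of 20364). Of these, 0 and 1 were among the 2 reported. Of the 20587 genes that passed the filter on low counts, 2033 were called in all. With DESeq2 3403 were called, but it was given all 32833 genes of the files, of which 26331 had any count, so these are not like shares. Within classes, 45 were called with no filter, 11 at resolution 1.0, 30 with the replicate block, and 6 to 67 with 1 library left out. Of the 22 calls, as far as each could be tested, 6 of 20 were lost with DESeq2, 5 of 17 with genes scaled over all nuclei, 4 of 20 with high doublet scores removed and 7 of 18 at resolution 1.0. DESeq2 gave no adjusted p for EXPA3 in cortex-like and XTH20 in stele-like nuclei. Of the differences, 27 were called with no filter and 3 to 65 with 1 library left out, and XTH31 in endodermis-like nuclei reversed to 0.0646 at resolution 1.0, where 6 others were lost. With genes scaled over all nuclei, 10 of the 16 were lost. That grouping followed the libraries in part, as one cortex-like cluster held 0 nuclei of either stress library and 744 of control replicate 2. At gene starts, regions of members were called only in fits with 1 library left out. The numbers of the replicates are shared by the groups only as numbers. With 2 libraries a group, their deviations give 1 correlation of 0.11 between same-numbered libraries, which cannot show pairing, so the replicate block is not read as pairing. With 1 library left out, the lone library of its group is assumed to vary like those of the other group. The stress libraries varied less than the control libraries, and the calls without a control library rest on that smaller spread.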
